A study of Mus musculus with 10 samples.

Results

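The genes described here are 51 genes of sterol and fatty acid metabolism, named for their textbook roles. They were chosen with earlier results of these data known. They cover cholesterol synthesis, the SREBP factors and their regulators, sterol transport and LXR targets, fatty acid synthesis, desaturation, elongation, activation and oxidation. The deposited table of 17493 genes held 50 of them. The remaining one, Hmgcs1, the cytosolic HMG-CoA synthase, is not analysed here. All 50 passed the filter on low values (at least 10 normalised reads in at least 2 of the 4 libraries), as did 12535 genes in all, and the lowest value of any of the 50 in any library was 19.0, for Acacb.

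Gene expression was measured by polyA-selected RNA sequencing of Th17 cells, helper T cells that make IL-17. One group was treated before harvest with TMP269, a selective inhibitor of class IIa histone deacetylases (HDAC4, HDAC5, HDAC7, HDAC9), and the other, labelled as control, with DMSO. Cells of both groups were CD4+ T cells from the spleen of C57BL/6 mice, stimulated as naive cells through CD3 and CD28 on coated plates, with 20 ng/mL of IL-6 and 2.5 ng/mL of TGF-beta, in cultures of 48 to 72 h. There were 2 libraries in each group, and the labels do not say whether these came from separate animals or cultures, so a p-value here reflects no more than the spread between these libraries, which may be technical. The sources used here give neither the dose of TMP269 and its time of exposure nor the age and sex of the mice.

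A cell can make cholesterol and fatty acids from acetyl-CoA, or take them up. When sterols in the endoplasmic reticulum are scarce, SCAP carries the SREBP factors to the Golgi for cleavage, and the released factors switch on the synthesis genes, while the INSIG proteins hold SCAP back when sterols are plentiful. Oxysterols, which build up with excess sterol, activate the LXR receptors and their export genes. T cells turn these synthesis pathways up after activation, and Th17 cells are known to depend on fatty acid synthesis through ACC1.

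The libraries held 20837231 and 23259102 reads with TMP269 and 25321455 and 20007042 reads with DMSO. The ribosomal RNA gene Rn45s took 0.716% and 1.12% of the TMP269 libraries and 0.836% and 2.20% of the DMSO libraries, so DMSO replicate 2 stood apart. The 8 T cell markers were at 2679 to 13911 normalised reads in every library. Of these, 1 rose (Cd5, 1.49-fold, limma adjusted p = 0.00356), 0 fell and 7 were not called. The Th17 cytokine gene Il17a was at 750 and 786 with TMP269 and at 1888 and 1949 with DMSO. Of the 8 Th17 markers, 3 fell (Il17a, Il17f and Ccr6), 2 rose (Il21 and Maf) and 3 were not called. The 8 B cell markers were also present, summing to 2545 and 2560 normalised reads with TMP269 and 4691 and 4768 with DMSO, and 6 of the 8 fell and 0 rose. In the myeloid list the 8 markers summed to 83.7 and 106 with TMP269 and 69.3 and 53.1 with DMSO. Of these, 3 were tested and 0 were called, with 1 at an unadjusted limma p under 0.05 (Itgax, log2 fold change 0.83). Itgax was called higher with the replicate number as a block (limma adjusted p = 0.0187). EdgeR, by TMM factors or total library size, and DESeq2 called 0, but DESeq2 gave Csf1r and Itgam no adjusted p. Fcgr1 and Mpo were at or near 0. In bulk RNA, fewer cells of a type and less RNA per cell cannot be told apart, and the part of the B cell markers' fall in the values below was not tested.

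Sterol and fatty acid genes moved little in cells with TMP269, and those that moved mostly fell. Calls are genes whose limma p, adjusted by Benjamini and Hochberg's method over every gene tested, was under 0.05. Of the 50 genes, 2 rose (Abcg1 and Fasn), 9 fell (Pmvk, Fdps, Stard4, Scd1, Elovl6, Acsl1, Acsl3, Hadh and Acaa2) and 39 were not called. That is 22.0% called, against 27.5% of all tested genes, where 12.8% were called higher and 14.7% lower. The share in the set was thus no larger than the background. The median log2 fold change was -0.12 in the set and 0.00 over all tested genes. No gene of the set reached a 2-fold change in either direction, which 5.06% of all tested genes did. The libraries of the groups did not overlap for 38 of the 50 genes (76.0%), 31 of them lower and 7 higher with TMP269, against 66.6% of all tested genes.

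**Figure D1:**
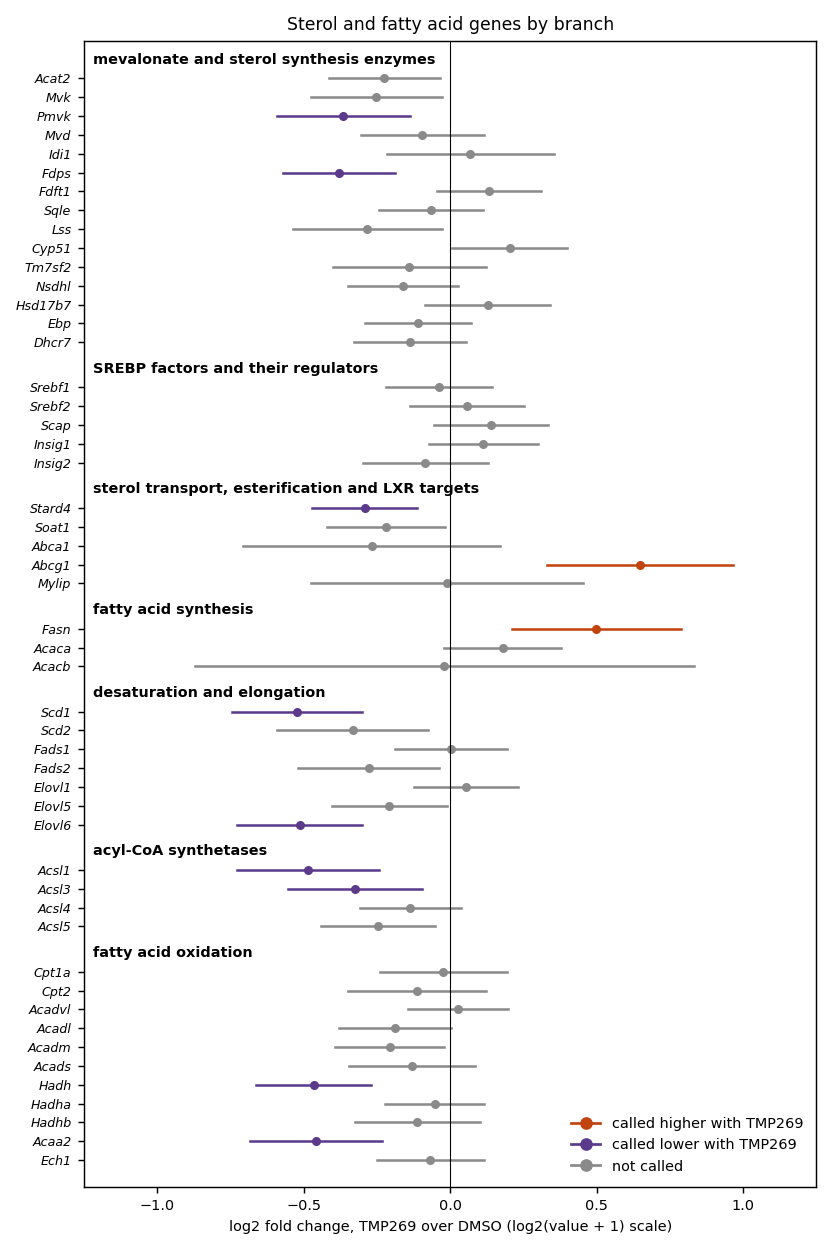
Log2 fold change of each of the 50 genes, TMP269 over DMSO, with the 95% interval from limma, grouped by branch. The points run between -0.52 for Scd1 and 0.65 for Abcg1, and the 5 SREBP genes lie between -0.08 and 0.14.

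The number of genes called lower was 5 without DMSO replicate 2, 6 without TMP269 replicate 2 and 9 without either other library, and the number called higher was 1 without DMSO replicate 2 or without TMP269 replicate 1. With libraries scaled to equal totals, the median over all tested genes became 0.10 and that over the set -0.02, a shift that is nearly the same for every gene. That scaling left 3 genes higher and 5 lower, and it raised the share of higher genes among all calls to 67.3%, against 46.5% with the deposited scaling. Abcg1, Scd1, Elovl6 and Hadh were called in 13 of the 14 alternatives run. The exception was limma without its mean-variance trend, which called 0 of the 50 genes (12 at an unadjusted p under 0.05) and 8.48% of all genes.

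**Figure D2:**
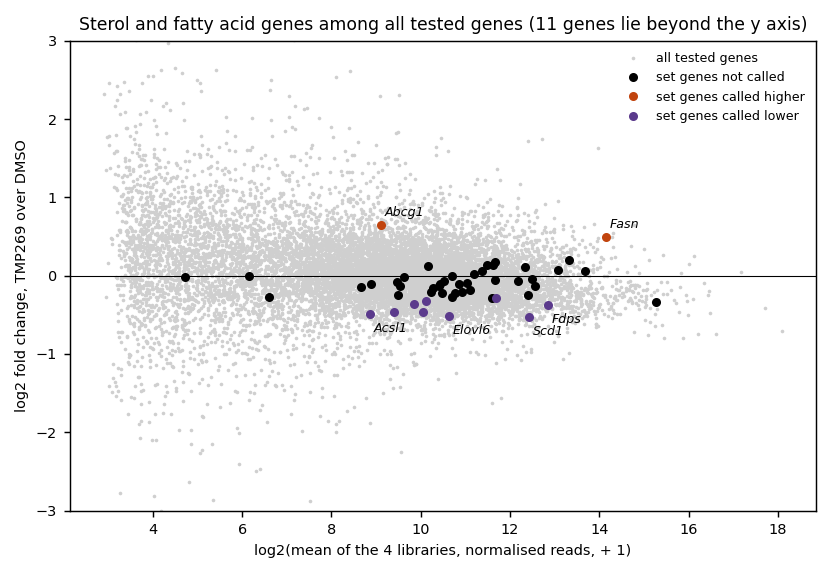
Log2 fold change, TMP269 over DMSO, against the log2 mean of the 4 libraries for all 12535 tested genes (grey) and the 50 genes of the set (coloured by call, with 6 of the called genes named). All 50 points lie between -0.52 and 0.65, within the range of the grey points, and the highest are Abcg1 and Fasn.

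The cholesterol synthesis enzymes, which turn acetyl-CoA into sterols through mevalonate, showed 2 falls among 15 genes and 0 rises. The falls were 13.3% of these genes, against 14.7% of all tested genes called lower. At an unadjusted limma p under 0.05 there was 1 rise. DESeq2 and edgeR with TMM factors called 0 rises, and edgeR with total library size called 1. The median log2 fold change of the 15 enzymes was -0.14, or -0.03 with equal totals. The enzymes summed to 47339 and 46611 normalised reads with TMP269 and to 47808 and 49597 with DMSO. Fdps makes farnesyl diphosphate, the branch point to sterols and prenyl groups. It stood at 6655 and 6148 normalised reads with TMP269, against 8614 and 8029 with DMSO. Both TMP269 libraries lay below both DMSO libraries, and the log2 fold change was -0.38 ± 0.08 (SE, limma adjusted p = 0.0120). Pmvk, the phosphomevalonate kinase, was at 858 and 746 normalised reads with TMP269 and 1055 and 1006 with DMSO. The groups were again separate (log2 fold change -0.37 ± 0.10, SE, limma adjusted p = 0.0265). The number of enzymes called lower was 1 without DMSO replicate 1, 3 without TMP269 replicate 1 and 0 without TMP269 replicate 2. Fdps missed the threshold when TMP269 replicate 2 was left out (limma adjusted p = 0.0888) and with equal totals (0.0648). Pmvk missed it when DMSO replicate 1 (0.0733), DMSO replicate 2 (0.0534) or TMP269 replicate 2 (0.177) was left out and with equal totals (0.12). Fdps has processed pseudogenes with which reads could have been shared.

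The other 13 enzymes were not called, and their changes did not run one way along the pathway. Before the farnesyl step, Acat2, the cytosolic acetoacetyl-CoA thiolase, had a log2 fold change of -0.22, the mevalonate kinase gene Mvk -0.25 and the decarboxylase gene Mvd -0.09. The isomerase gene Idi1 was at 0.07, with libraries at 8074 and 9650 normalised reads for TMP269 and 7509 and 9428 for DMSO. Those groups overlapped, and the spread within each was larger than the difference between them. In the sterol part, the squalene synthase gene Fdft1 was at 0.13, the squalene epoxidase gene Sqle at -0.07 and the lanosterol synthase gene Lss at -0.28. Lss, at 3084 and 2537 normalised reads with TMP269 and 3675 and 3154 with DMSO, was called lower with DMSO replicate 2 (limma adjusted p = 0.0467) or TMP269 replicate 1 (0.0147) left out, against 0.0926 with all 4 libraries. Cyp51, the lanosterol demethylase, was at 11037 and 10806 normalised reads with TMP269 and 9051 and 9951 with DMSO. Its groups were separate, the log2 fold change was 0.20 (limma adjusted p = 0.112), and it was a call with equal totals (0.31, limma adjusted p = 0.0222) and in edgeR with total library size (edgeR adjusted p = 0.0230). Tm7sf2, Nsdhl, Ebp and Dhcr7, enzymes of later steps, lay between -0.16 and -0.11, and Hsd17b7, a sterol ketoreductase, at 0.13. Acat2 has a near-identical neighbour in the mouse genome, so its reads are uncertain.

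None of the 5 SREBP genes was called with limma (against 27.5% of all tested genes), DESeq2 or edgeR under either of its scalings. In limma with all 4 libraries, the deposited scaling and no block, none had an unadjusted p under 0.05. The same held in DESeq2 and in edgeR with TMM factors. The limma adjusted p was 0.0531 for Insig1 with equal totals and 0.0503 for Scap with the replicate number as a block. In edgeR with total library size the unadjusted p was 0.0165 for Insig1 and 0.0337 for Scap. Srebf1, which encodes the factor known mainly for fatty acid genes, was at 5805 and 5538 normalised reads with TMP269 and 6015 and 5642 with DMSO. Srebf2, which encodes the factor of sterol genes, was at 13742 and 13006 with TMP269 and 12630 and 13087 with DMSO. For both genes the libraries of the groups overlapped, with log2 fold changes of -0.04 ± 0.08 and 0.06 ± 0.09 (SE, limma adjusted p = 0.742 and 0.654). Insig1, itself a target of SREBP, was at 5280 and 5489 with TMP269 and 4744 and 5225 with DMSO. Its groups lay just apart, and the log2 fold change was 0.11 ± 0.08 (SE, limma adjusted p = 0.335). In edgeR with total library size it was 0.22 (edgeR adjusted p = 0.0589). Insig2 was at 678 and 702 normalised reads with TMP269 and 755 and 709 with DMSO, and Scap at 3520 and 3092 with TMP269 and 3014 and 2980 with DMSO. With the deposited scaling, the 95% intervals of the 5 log2 fold changes lay within -0.30 and 0.33. These values are of mRNA and do not measure cleavage of the SREBP proteins.

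Among the genes of sterol transport, storage and export, Abcg1 rose and Stard4 fell. These were 2 of only 5 genes (40.0%), against 27.5% of all tested genes. Abcg1, an LXR target, encodes a transporter that exports cholesterol to lipoproteins. It was at 593 and 757 normalised reads with TMP269, against 462 and 396 with DMSO. Both TMP269 libraries were above both DMSO libraries, with a 1.57-fold rise (log2 fold change 0.65 ± 0.14, SE, limma adjusted p = 0.0105). The call held without each library in turn (limma adjusted p between 1.08e-04 and 0.0397). Stard4, a carrier of sterols between membranes, was at 2944 and 2994 normalised reads with TMP269, against 3485 and 3791 with DMSO. Its groups were separate, and its log2 fold change was -0.29 ± 0.08 (SE, limma adjusted p = 0.0254). It missed the threshold with DMSO replicate 2 (0.129), TMP269 replicate 1 (0.124) or TMP269 replicate 2 (0.0813) left out, and with equal totals (0.0786).

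The other genes of this branch, the LXR targets Abca1 and Mylip and the esterification gene Soat1, were not called. Pltp, an LXR target outside the set, rose and is described below. Abca1, a second cholesterol exporter, was at 87.9 and 86.4 normalised reads with TMP269 and 116 and 95.3 with DMSO. Its groups were separate, but the log2 fold change of -0.27 ± 0.19 was not called (SE, limma adjusted p = 0.329). The ratio of Abcg1 to Abca1 within a library, which no library scaling alters, was 6.75 and 8.76 with TMP269 and 3.98 and 4.15 with DMSO. This ratio sets a called rise over a gene with a negative change, so it restates those values and is no further evidence. Mylip, the ubiquitin ligase that lowers lipoprotein receptors, was at 70.3 in both TMP269 libraries and at 69.3 and 72.4 with DMSO. Soat1, which esterifies cholesterol for storage, was at 1265 and 1369 with TMP269 and 1465 and 1605 with DMSO. The Soat1 groups were separate, but the log2 fold change of -0.22 was not called (limma adjusted p = 0.0962). At these low counts the 95% intervals were wide for Abca1 (-0.71 to 0.17) and Mylip (-0.47 to 0.45). They still allow falls as large as that called for Fdps (-0.38). With the deposited scaling, their upper ends lie below the log2 fold changes of the called rises, Fasn (0.50) and Abcg1 (0.65).

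Of the 3 genes of fatty acid synthesis, Fasn rose and the carboxylases were not called. That is 33.3% of only 3 genes, against 27.5% of all tested genes. Fasn, the fatty acid synthase that builds palmitate, was at 22811 and 19362 normalised reads with TMP269, against 16565 and 13364 with DMSO. Both TMP269 libraries were above both DMSO libraries, and the rise was 1.41-fold (log2 fold change 0.50 ± 0.13, SE, limma adjusted p = 0.0203). Fasn missed the threshold with DMSO replicate 2 (0.0922) or TMP269 replicate 1 (0.102) left out. Acaca, which encodes ACC1, the enzyme that makes malonyl-CoA for the synthase, was at 3639 and 3243 normalised reads with TMP269 and 3159 and 2914 with DMSO. Its groups lay apart, but the log2 fold change of 0.18 ± 0.09 was not called (SE, limma adjusted p = 0.159). Acacb, the mitochondrial ACC2 isoform, was low, between 19.0 and 32.04 normalised reads in every library, and its groups overlapped (log2 fold change -0.02 ± 0.38, SE).

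Of the 7 desaturases and elongases, 2 fell and 0 rose (0 rises at an unadjusted p under 0.05, and 0 called with DESeq2 or with edgeR under either scaling). The falls were 28.6% of only 7 genes, against 27.5% of all tested genes called and 14.7% called lower. Scd1, the stearoyl-CoA desaturase that makes oleate, was at 4965 and 4136 normalised reads with TMP269, against 6457 and 6576 with DMSO. Elovl6, which elongates palmitate to stearate, was at 1266 and 1357 with TMP269, against 1746 and 2009 with DMSO. The groups were separate for both genes, with falls to 0.696-fold (log2 fold change -0.52 ± 0.10, SE, limma adjusted p = 0.00570) and 0.700-fold (log2 fold change -0.51 ± 0.09, SE, limma adjusted p = 0.00534). Both calls held without each library in turn. Within a library, the ratio of Fasn to Scd1 was 4.59 and 4.68 with TMP269 and 2.57 and 2.03 with DMSO. The ratio of Fasn to Elovl6 was 18.02 and 14.3 with TMP269 and 9.48 and 6.65 with DMSO. These ratios set a gene called higher over genes called lower, so they restate those calls and are no further evidence.

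Scd2, a second desaturase, was at 37200 and 32933 normalised reads with TMP269 and 44448 and 43778 with DMSO. Its groups did not overlap, and it lay just outside the threshold in limma (log2 fold change -0.33 ± 0.11, SE, limma adjusted p = 0.0576) and inside it in DESeq2 (adjusted p = 0.00478) and in edgeR with TMM factors (0.0487), but not in edgeR with total library size (0.13). The Scd genes are close paralogs, and how reads matching more than one of them were counted is not given in the sources used here. Fads2, the delta-6 desaturase, had a log2 fold change of -0.28 and was called only without TMP269 replicate 1 among the libraries left out (limma adjusted p = 0.0146, against 0.0835 with all 4). Fads1, the delta-5 desaturase, was at 0.00, with libraries at 1750 and 1597 normalised reads for TMP269 and 1630 and 1710 for DMSO. Elovl5, an elongase of polyunsaturated chains, was at -0.21 and Elovl1, an elongase of very long chains, at 0.05, and neither was called.

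**Figure D3:**
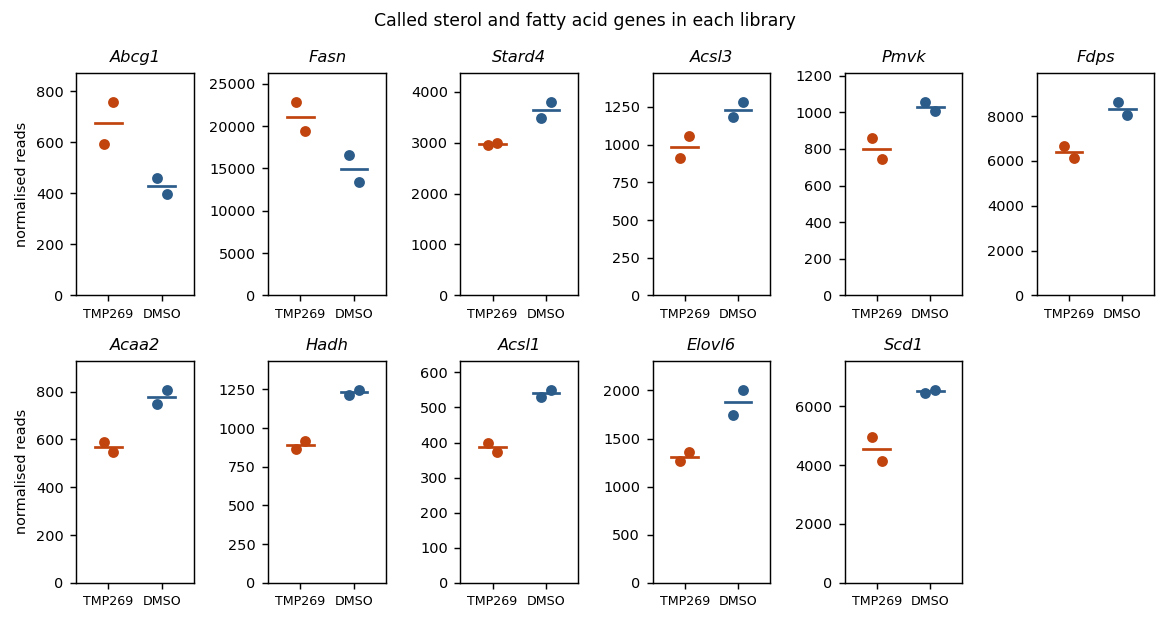
Normalised reads of the 11 called genes in each library (points) with the group mean (line), TMP269 left of DMSO, each panel on its own axis from 0. In every panel both TMP269 libraries lie to one side of the DMSO pair, above it for Abcg1 and Fasn and below it for the other 9.

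Promoter windows of 300 bases, from 250 before to 50 after the start, were taken from RefSeq (GRCm38.p6), which is not the mm9 build named in the submitters' processing notes, and matched by symbol for 41 of the 50 genes. They were searched on both strands for motifs of factors known to act on these pathways. A gene counted as a match if any of its windows held the motif. The genes compared against were not limited to those expressed here, while all genes of the set were. The CCAAT box of NF-Y, a partner of SREBP, was found as CCAAT for 26 of 41 genes (63.4%), 11 of 12 sterol enzymes among them, against 41.1% of all 27025 genes in that table, which include non-coding ones. The GC box GGGCGG was found for 32 of 41 genes (78.05%), 11 of 12 sterol enzymes among them, against 38.2% of all genes. The E-box CACGTG was found for 6 of 41 genes against 8.09% of all genes. The core of the sterol regulatory element, searched as TCACNCCAC, was found for 1 of 41 genes, Acsl1, against 1.44% of all genes. It was found for 0 of 12 sterol enzymes. Variants of it were not searched, so a window without a match may still hold an element. The DR4 element of LXR was found for 0 of 41 genes against 0.0962%. At a share that low, a count of 0 says nothing about LXR elements in these genes. A match is a description of these letters only. Of the 11 called genes, 6 had a window, and 5 of these held a CCAAT match (Pmvk, Fasn, Acsl1, Acsl3 and Hadh). The other called genes, Abcg1, Scd1, Fdps, Stard4 and Acaa2, had no window and were not searched. Windows are shown for Fasn, which rose, and for Elovl6 and Acsl1, which fell, with matches to the CCAAT box, the GC box and the sterol element core on either strand in capitals.
Fasn, chr11:120824498-120824797, minus strand: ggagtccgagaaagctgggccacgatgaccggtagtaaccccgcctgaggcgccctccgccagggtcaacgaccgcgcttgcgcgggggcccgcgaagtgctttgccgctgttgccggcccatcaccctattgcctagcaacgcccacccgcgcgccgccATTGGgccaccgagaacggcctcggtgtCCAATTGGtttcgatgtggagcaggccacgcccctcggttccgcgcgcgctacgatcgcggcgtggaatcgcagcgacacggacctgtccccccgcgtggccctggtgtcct
Elovl6, chr3:129532136-129532435, plus strand: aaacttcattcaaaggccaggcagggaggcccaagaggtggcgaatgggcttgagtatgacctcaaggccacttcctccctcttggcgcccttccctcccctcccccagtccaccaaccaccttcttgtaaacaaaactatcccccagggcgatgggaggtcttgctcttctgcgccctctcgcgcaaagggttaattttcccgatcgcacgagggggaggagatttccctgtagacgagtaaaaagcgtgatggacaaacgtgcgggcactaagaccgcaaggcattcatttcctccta
Acsl1, chr8:46490716-46491015, plus strand: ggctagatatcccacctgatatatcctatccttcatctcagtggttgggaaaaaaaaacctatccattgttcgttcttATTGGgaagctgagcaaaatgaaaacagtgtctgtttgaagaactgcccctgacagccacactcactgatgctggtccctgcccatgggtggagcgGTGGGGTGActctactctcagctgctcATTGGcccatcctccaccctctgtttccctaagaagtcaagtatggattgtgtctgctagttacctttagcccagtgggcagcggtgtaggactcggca

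The Fasn window holds 3 CCAAT matches, 2 of which overlap on opposite strands. The Elovl6 window holds none of the 3 motifs. The Acsl1 window shown is 1 of 2 listed for that gene. It holds the sterol element core and 2 CCAAT matches, while the other window holds 7 GC box matches.

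The 4 acyl-CoA synthetases, which activate free fatty acids, all had negative changes, and 2 of them were called. Acsl1 was at 399 and 373 normalised reads with TMP269, against 531 and 551 with DMSO. The groups were separate, with a fall to 0.714-fold (log2 fold change -0.49 ± 0.11, SE, limma adjusted p = 0.0116, but 0.0529 without DMSO replicate 2). Acsl3, the synthetase of lipid droplets, was at 911 and 1058 with TMP269, against 1180 and 1281 with DMSO, and its groups were separate too (log2 fold change -0.32 ± 0.10, SE, limma adjusted p = 0.0424). It missed the threshold with DMSO replicate 2 (0.171) or TMP269 replicate 1 (0.287) left out, with equal totals (0.114), without the low-value filter and in DESeq2. Acsl4, which prefers arachidonate, and Acsl5 were not called, at log2 fold changes of -0.14 and -0.25 (limma adjusted p = 0.207 and 0.0628), and Acsl5 was called lower without DMSO replicate 1 (0.0332). With 1 library left out, the number of synthetases called lower was 3 (DMSO replicate 1), 0 (DMSO replicate 2) or 1 (TMP269 replicate 1). All 4 changes remained negative with equal totals, at -0.03 for Acsl4.

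In mitochondrial fatty acid oxidation 2 of 11 genes fell and 0 rose (0 rises at an unadjusted p under 0.05, and 0 called with DESeq2 or with edgeR under either scaling). The falls were 18.2% of these genes, against 27.5% of all tested genes called and 14.7% called lower. Hadh, the dehydrogenase of short and medium chains, was at 865 and 918 normalised reads with TMP269, against 1215 and 1250 with DMSO. Acaa2, the thiolase of the last step, was at 588 and 546 with TMP269, against 750 and 809 with DMSO. For both genes the groups were far apart relative to their spread, with falls to 0.724-fold (log2 fold change -0.47 ± 0.09, SE, limma adjusted p = 0.00554) and 0.728-fold (log2 fold change -0.46 ± 0.10, SE, limma adjusted p = 0.0108). The Hadh call held without each library in turn, and the Acaa2 call was lost without DMSO replicate 2 (0.0567), where 1 gene of this branch was called lower.

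The entry step and the long chain enzymes were not called. Cpt1a, which admits long chains to the mitochondrion and sets the rate of oxidation, was at 823 and 749 normalised reads with TMP269 and 819 and 778 with DMSO. The DMSO values lay between the TMP269 values, and the 95% interval of its log2 fold change was -0.24 to 0.19. Cpt2, its partner at the inner membrane, was at 443 and 459 with TMP269 and 488 and 487 with DMSO (log2 fold change -0.11, limma adjusted p = 0.449). Hadha and Hadhb, the subunits of the trifunctional protein, had log2 fold changes of -0.05 and -0.11. Among the acyl-CoA dehydrogenases, Acadvl was at 0.03, Acads at -0.13, Acadl at -0.19 and Acadm at -0.21. The Acadm groups were separate, at 1121 and 1108 normalised reads with TMP269 and 1267 and 1307 with DMSO (limma adjusted p = 0.0911). Ech1, a dienoyl-CoA isomerase, was at -0.07. The branch median was -0.11, or -0.01 with equal totals, where Cpt1a, Hadha and Ech1 turned positive.

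Lists of further genes of the same pathways were chosen for their roles. Of 17 other sterol genes, 2 rose and 2 fell, so 23.5% were called, against 27.5% of all tested genes. Npc1 and Npc2, which carry cholesterol out of the lysosome, rose 1.77-fold and 1.38-fold. Npc1 was at 2895 and 2730 normalised reads with TMP269, against 1607 and 1576 with DMSO (limma adjusted p = 3.73e-04). Npc2 was at 13425 and 15630 with TMP269, against 9929 and 11176 with DMSO (limma adjusted p = 0.0133, but 0.0858 without TMP269 replicate 2). Acat1, the mitochondrial acetoacetyl-CoA thiolase, fell to 0.693-fold and Scarb1, a lipoprotein receptor, to 0.730-fold. The count of rises was 4 without DMSO replicate 2, 3 without TMP269 replicate 1, 1 without TMP269 replicate 2, 6 with equal totals, 5 in edgeR with TMM factors and 3 in DESeq2.

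Of 17 tested among 22 other fatty acid synthesis genes, 6 fell and 0 rose. That is 35.3% called, against 27.5% of all tested genes called and 14.7% called lower. At an unadjusted limma p under 0.05 there were 0 rises, and DESeq2 and edgeR with TMM factors called 0. With edgeR and total library size 1 rise was called, Hsd17b12, an elongation ketoreductase gene named after its value was seen. Tecr, the reductase of the last elongation step, was at 2619 and 2444 normalised reads with TMP269, against 3511 and 3323 with DMSO, a fall to 0.741-fold (limma adjusted p = 0.00544). Hacd1, listed in the table as Ptpla, is a dehydratase of the step before it. It was at 54.8 and 63.6 with TMP269, against 102 and 110 with DMSO (0.563-fold, limma adjusted p = 0.0173, but 0.0769 with DMSO replicate 2 left out, 0.0741 with TMP269 replicate 1 left out and no call in DESeq2). The other 4 are named after their values were seen. They were Acly, Acss2 and Slc25a1, which supply cytosolic acetyl-CoA or its citrate, at 0.795-fold, 0.711-fold and 0.833-fold, and Mecr, of mitochondrial fatty acid synthesis, at 0.791-fold. Equal totals ended all 4 of these calls. With 1 library left out, the list's falls numbered 4 (DMSO replicate 1), 1 (DMSO replicate 2) or 2 (either TMP269 library), and they numbered 2 with equal totals, which also gave 1 rise, and 3 in DESeq2.

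Among 26 tested of 30 other oxidation genes, 2 rose and 2 fell, so 15.4% were called, against 27.5% of all tested genes. Cpt1c, a carnitine palmitoyltransferase paralog best known from neurons, was at 211 and 226 normalised reads with TMP269, against 54.9 and 35.0 with DMSO. That is a 4.89-fold rise, with a 95% interval of 3.37-fold to 7.09-fold (limma adjusted p = 5.17e-04), called in all 14 alternatives. Acox3, a peroxisomal acyl-CoA oxidase, rose 1.33-fold, with 1094 and 974 with TMP269 against 883 and 680 with DMSO (limma adjusted p = 0.0448, lost with DMSO replicate 2 left out at 0.234 and with TMP269 replicate 1 left out at 0.118). Etfb, a subunit of the electron carrier that serves the acyl-CoA dehydrogenases, fell to 0.728-fold. Hsd17b10, a mitochondrial dehydrogenase, fell to 0.794-fold, a call lost without any single library except TMP269 replicate 2 and with equal totals (limma adjusted p = 0.103). The list held 1 rise and 1 fall with DMSO replicate 2 or TMP269 replicate 1 left out, 2 rises and 3 falls with TMP269 replicate 2 left out, 6 rises and 1 fall with equal totals, and 2 rises and 1 fall in DESeq2.

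Of 19 tested among 20 other genes of LXR action and lipid storage, 3 rose and 3 fell (5 and 3 with equal totals). That is 31.6% called with the deposited scaling, against 27.5% of all tested genes. Pltp, a phospholipid transfer protein gene and LXR target, rose 2.44-fold, with 434 and 414 normalised reads with TMP269 against 190 and 158 with DMSO (limma adjusted p = 6.51e-04). Rxra, the partner receptor of LXR, rose 1.37-fold (limma adjusted p = 0.00595). Fabp5, a fatty acid binding protein gene, fell to 0.460-fold, with 2206 and 1956 with TMP269 against 4608 and 4418 with DMSO (limma adjusted p = 1.53e-04). Dgat2, an enzyme of triglyceride synthesis, fell to 0.517-fold (limma adjusted p = 0.00572). The remaining calls, named after their values were seen, were the hormone-sensitive lipase gene Lipe at 1.65-fold and the monoglyceride lipase gene Mgll at 0.451-fold. The LXR receptor genes themselves were not called, with log2 fold changes of 0.10 for Nr1h2 and 0.58 for Nr1h3, and Nr1h3 was at 18.05 normalised reads or below in every library.

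**Figure D4:**
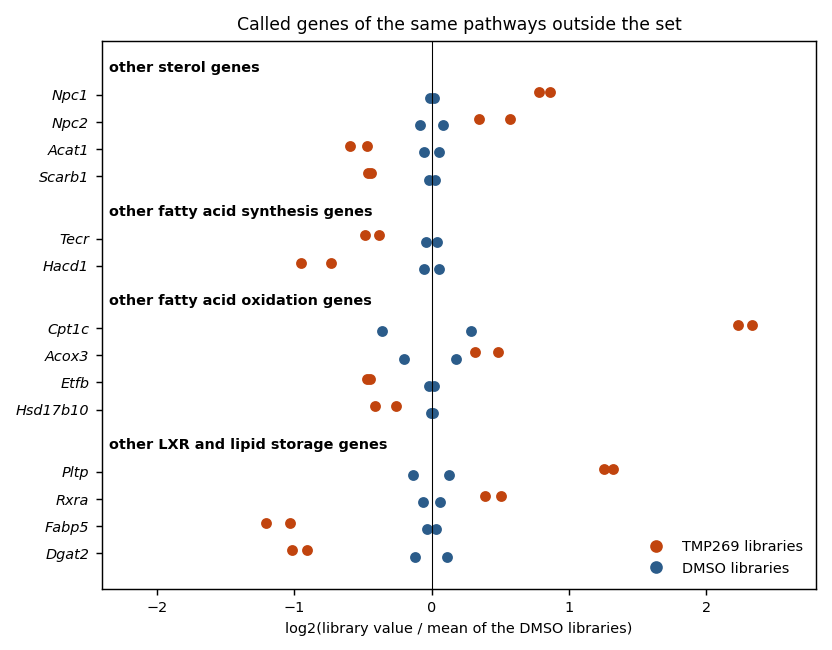
Each library's value relative to the mean of the DMSO libraries, on a log2 scale, for the called genes named by rule from the 4 lists of further pathway genes. Cpt1c lies farthest to the right, at a 4.89-fold rise, and Fabp5 farthest to the left, at 0.460-fold.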

How the data were processed

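RNA was sequenced in 4 libraries, and 6 chromatin libraries of the series are not analysed here. The authors deposited 1 table of normalised signal. Its values are each library's gene counts divided by 1 size factor, and multiplying by that factor returned whole reads (within 0.001) for 100% of values. The submitters' processing notes name DESeq2, HTSeq, TopHat2 2.1.0, Bowtie2 and CASAVA 1.4, without roles, and mm9 as the build. No source used here gives the annotation, the strand setting or how reads matching several places were treated, so overlapping and near-identical genes are uncertain.

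Groups were compared with limma (3.58.1, R 4.3.3), with its mean-variance trend and no covariate, after taking log2(value + 1). Genes entered with 10 or more normalised reads in 2 or more libraries. Fold changes are on that scale, which understates changes of low genes. Tests were two-sided, with 1 Benjamini-Hochberg adjustment over all 12535 genes. An adjusted p is limma's unless another tool is named. Alternatives were edgeR (4.0.16) with TMM factors or total library size and DESeq2 (1.42.0), on the recovered reads, equal totals, other pseudocounts and filters, no trend, the replicate number as a block, and each library left out. With 1 library left out, the group's remaining library is taken to have the spread of the other group. The fit was also run on simulated data with known changes, drawn with the same dispersion for every gene and independent libraries. That setting is simpler than these data, so it does not give the error rate of the calls here.

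The genes, their branches and the lists of further pathway genes and cell markers were chosen with earlier results of these data known. All genes of the set are named, and of each further list up to 2 called rises and 2 falls by smallest p. One result is not reported here, and its gene was taken out of its list and of that list's counts. Promoters came from RefSeq (GRCm38.p6). The marker lists not given with the results were CD8 T or NK cells and erythroid or stromal cells. Of these, 0 of 4 and 0 of 2 tested genes were called, with 0 at an unadjusted limma p under 0.05. In DESeq2 and in edgeR under either scaling, 0 were called too, but DESeq2 gave Eomes and Col1a1 no adjusted p. With the replicate number as a block, Prf1 was called lower (limma adjusted p = 0.0437).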

Additional observations from a re-analysis of the deposited data

How the results depend on the processing

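Of 3448 calls among all genes, 11 fell in the set, 2 higher and 9 lower. With total library size in edgeR or equal totals in limma, 5 genes of the set were lower. Limma without the trend called 1063 genes, 0 higher and 0 lower in the set. The replicate number as a block called 6360 genes, 5 higher and 21 lower in the set, including all 11. Libraries with the same number deviated together (r = 0.371 over 12535 genes, which are not independent), but nothing in the labels says that the number marks a shared source. With 1 library left out, all calls ranged over 2078 to 3675, higher calls of the set over 1 to 2 and lower ones over 5 to 9. With other pseudocounts or filters, edgeR with TMM factors or DESeq2, the set's counts stayed within 1.5 times. No called gene changed sign under any of the 14 alternatives.

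Uncalled genes near 0 changed sign, and the cause was not tested beyond the shift that scaling itself makes. Under the 2 total-based scalings, edgeR's first and limma's second, the log2 fold changes were 0.0073 and 0.0094 for Mvd, 0.0396 and 0.0392 for Sqle, 0.0632 and 0.0652 for Srebf1, 0.0152 and 0.0193 for Insig2, 0.0928 and 0.0923 for Mylip, 0.0648 and 0.0799 for Acacb, 0.0789 and 0.0807 for Cpt1a, 0.0504 and 0.0513 for Hadha and 0.0369 and 0.0367 for Ech1. With edgeR and TMM factors Mylip was at 0.0043. With 1 library left out, the values ranged over -0.0951 to 0.233 for Idi1, -0.0852 to 0.0070 for Srebf1, -0.0416 to 0.0204 for Mylip, -0.382 to 0.342 for Acacb, -0.0647 to 0.0675 for Fads1 and -0.0908 to 0.0438 for Cpt1a.

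The filter at 50 removed Acacb. Interval width limits which changes these libraries can show, and the share of read depth in that width was not tested. The median standard error of a log2 fold change in the set was 0.09. Intervals are wider than that, so a change above 0.09 is not thereby resolved. For Insig1, at 0.11, the limma interval ran between -0.07 and 0.30 and so included no change.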
